A study of Drosophila melanogaster with 3 samples.

Results

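The 8 genes described here direct the patterning of the embryonic head of *Drosophila melanogaster*: *oc*, *btd*, *Sp1*, *tll*, *cnc*, *croc*, *gt* and *hb*. They were taken by symbol from the Ensembl annotation, where all 8 were found among 13945 protein-coding genes; the rule uses no peak, although earlier results of these data were known when the genes were chosen. Their binding by Empty spiracles (Ems) was read from chromatin immunoprecipitation followed by sequencing (ChIP-seq) of whole embryos aged 0 to 24 hours, males and females pooled. The embryos came from a transgenic line (strain 16T-GFP) that stably expresses Ems with green fluorescent protein at its C-terminus. The labels disagree on the antibody: the description has the precipitation done against the tag, and the antibody field reads ems. There was 1 group of 3 biological replicates and no group to set against it, so counts are given beside those of all protein-coding genes or all peaks, with no test.

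The head of the fly embryo is patterned by head gap genes, which are switched on in broad, overlapping domains at the anterior end by maternal factors such as Bicoid and by the terminal signalling system. *ems*, *oc* and *btd* are the classical head gap genes, and loss of each removes adjacent head segments. Ems is a homeodomain protein, a class that binds DNA at cores such as TAATTA. Outside head segmentation it also acts in brain and tracheal development.

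Of the 8 genes, 4 had at least 1 optimal peak in the gene body with 10 kb to each side: *oc*, *btd*, *cnc* and *croc*. The other 4, *Sp1*, *tll*, *gt* and *hb*, had none. By the same rule 60.5% of all protein-coding genes had one, so the share among the 8 was not above that background. Optimal peaks are those of a list that the authors thresholded on agreement of rank between replicates, with 3866 peaks on the dm6 build. They were also the 3866 entries of highest signal in the joint list, which was called on all replicates together. Inclusion therefore does not show that a given peak agreed between replicates. Together the 8 regions, which did not overlap each other, spanned 264.9 kb and held 10 optimal summits, a density of 37.8 per Mb. The chromosome arms as a whole had 28.9 per Mb, which lies inside the exact 95% Poisson interval of the 8 regions (18.1 to 69.4). That interval covers counting error only and takes the summits as independent, although 4 lay in the *cnc* region and *btd* peaks overlapped. Only *cnc* had an optimal summit within 1 kb of one of its own transcription start sites (TSSs), 1 of 8 genes, beside 22.2% of protein-coding genes.

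The sequences that carry these results are the 201 bases centred on a summit, read from the RefSeq genome of the same assembly, 5′ to 3′ on the forward strand. Shown are the highest summit of the *oc*, *btd* and *cnc* regions, the summits in *cnc* promoters, and the summit that adjoins the highest one of *btd*. The window labelled internal TSS is centred 411 bp from that TSS and does not contain it. Capitals mark matches, on either strand, to any of the 11 6-base motifs searched.
oc, upstream summit (chrX:8656646-8656846): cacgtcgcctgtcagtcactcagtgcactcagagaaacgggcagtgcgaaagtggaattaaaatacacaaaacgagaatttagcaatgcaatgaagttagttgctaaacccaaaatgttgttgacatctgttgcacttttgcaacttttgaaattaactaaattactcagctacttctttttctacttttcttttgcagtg
btd, highest summit (chrX:9687618-9687818): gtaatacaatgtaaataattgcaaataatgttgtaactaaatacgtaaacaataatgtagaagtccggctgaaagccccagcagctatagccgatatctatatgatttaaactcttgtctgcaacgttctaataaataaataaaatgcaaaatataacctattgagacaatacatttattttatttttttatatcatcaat
btd, adjoining summit (chrX:9687825-9688025): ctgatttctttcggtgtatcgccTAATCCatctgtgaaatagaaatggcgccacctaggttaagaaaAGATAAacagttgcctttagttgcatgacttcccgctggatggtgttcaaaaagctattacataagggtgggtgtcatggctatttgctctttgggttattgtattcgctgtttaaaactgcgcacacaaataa
cnc, highest summit (chr3R:23175541-23175741): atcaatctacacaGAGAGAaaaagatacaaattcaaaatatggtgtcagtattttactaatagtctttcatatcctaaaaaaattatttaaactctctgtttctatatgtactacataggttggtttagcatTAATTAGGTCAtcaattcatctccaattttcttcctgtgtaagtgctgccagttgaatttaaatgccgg
cnc, internal TSS (chr3R:23189908-23190108): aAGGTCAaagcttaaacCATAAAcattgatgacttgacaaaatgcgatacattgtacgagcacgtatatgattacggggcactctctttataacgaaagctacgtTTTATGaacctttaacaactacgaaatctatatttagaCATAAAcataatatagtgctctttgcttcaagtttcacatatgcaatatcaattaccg
cnc, 5′ end (chr3R:23226649-23226849): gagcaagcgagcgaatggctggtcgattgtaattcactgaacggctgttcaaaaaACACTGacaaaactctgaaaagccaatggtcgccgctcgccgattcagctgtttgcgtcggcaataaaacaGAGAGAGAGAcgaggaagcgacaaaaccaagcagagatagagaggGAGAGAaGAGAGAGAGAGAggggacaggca

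The 11 motifs were TAATTA and TAATGA (homeodomain cores), TAATCC (the core bound by Bicoid and by Orthodenticle, the product of *oc*), TTTATG (a Caudal-type core), AGATAA (bound by GATA factors), CAGGTA (bound by Zelda), GAGAGA (bound by GAGA factor), CACGTG (an E-box), TGACCT (nuclear receptors), TATCGA (part of the DREF element) and ACACTG (part of a core promoter element). The first 3 share the letters TAAT. Of the 9 summits searched, those of the *oc*, *btd* and *cnc* regions, 7 had at least 1 of them within 100 bp, and 2 had none: the upstream summit of *oc* and the highest of *btd*. Of all optimal summits, 24.3% had none.

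TAATTA lay near 2 of the 9 summits, both in the *cnc* region, beside 15.1% of all 3866 optimal summits. At the highest *cnc* summit it began 32 bp after the summit and shared its last base with a TGACCT match on the other strand, as the capitals show. TAATCC lay near 1 summit, that adjoining the highest of *btd*, beside 5.69% of all. TAATGA was found at 1 summit, also of *btd*, beside 12.7% of all.

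The motif present at most summits was GAGAGA, at 4 of 9 beside 10.7% of all: 3 of the *cnc* region and 1 of *oc*. At the 5′ end of *cnc* it occurred 8 times, several of the matches overlapping, the first beginning 26 bp and the last 84 bp after the summit. TTTATG lay near 2 summits (21.2% of all), TGACCT near 2 (3.93%), ACACTG near 2 (20.7%), AGATAA near 1 (13.2%) and CAGGTA near 1 (3.85%). Neither TATCGA, present at 17.3% of all optimal summits, nor CACGTG, at 2.33%, was found at any of the 9. With 9 summits, 4 of them in 1 gene region, these counts describe single windows. The windows held between 26.9% GC, at the highest *btd* summit, and 50.2%, at the 5′ end of *cnc*, with a median of 37.8%, beside a mean of 37.5% ± 6.80 (SD over 3866 windows).

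**Figure D1:**
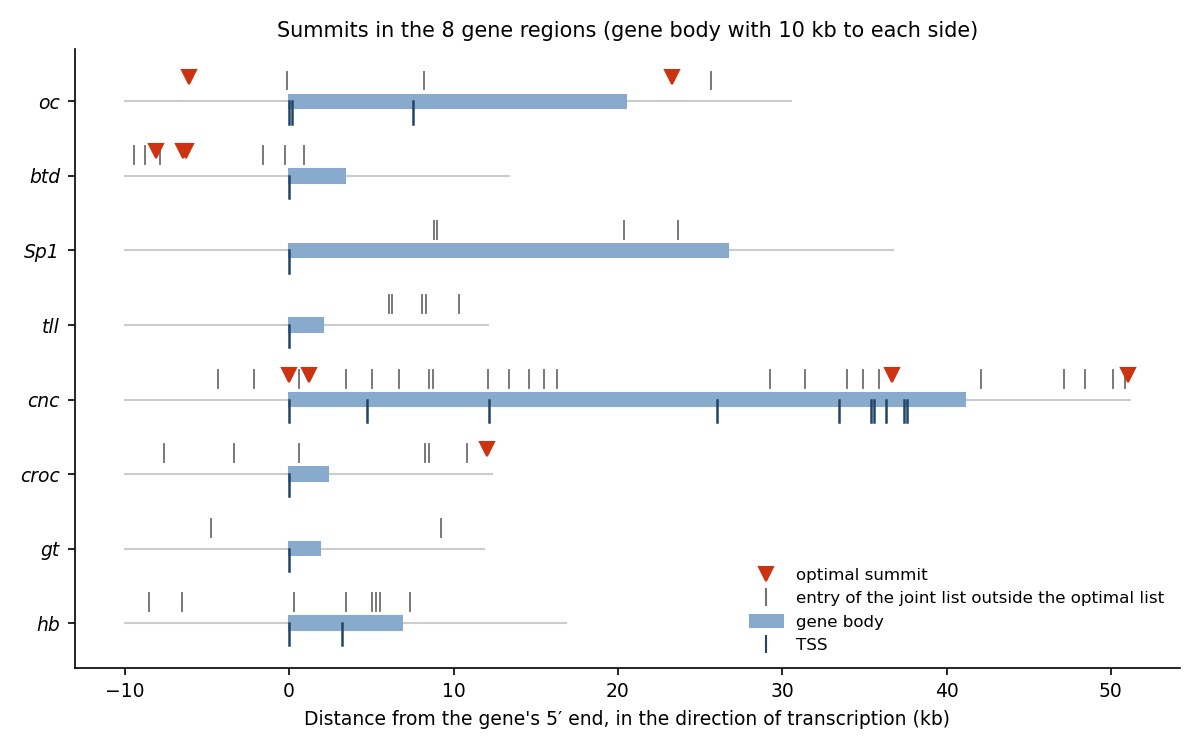
Summits in each gene's body with 10 kb to each side, by distance from the gene's 5′ end in the direction of transcription (kb); triangles are optimal summits, grey ticks are entries of the joint list outside the optimal list, boxes are gene bodies and dark ticks below them TSSs. The 10 triangles lie in the regions of *oc*, *btd*, *cnc* and *croc*, and those of *Sp1*, *tll*, *gt* and *hb* hold grey ticks alone.

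The homeodomain gene *oc* (FBgn0004102; X, 8630159 to 8650681, reverse strand), which specifies the anterior head and brain, had 2 optimal peaks, both intergenic and one on each side of the gene. The upstream peak (8656544 to 8656947) had its summit 6065 bp before the gene's 5′ end and ranked 1485 of 3866 by signal. In the replicates' own lists of 30000 entries the matching peak ranked 1477, 1542 and 1838 in replicates 1, 2 and 3. The downstream peak (8627197 to 8627600) lay 2760 bp past the 3′ end and ranked 2009, and 2112, 1839 and 2772 in the 3 replicates. For both, the nearest protein-coding TSS was one of *oc* itself, at 15777 bp for the downstream summit. The replicates placed the upstream summit within 38 bp and the downstream one within 26 bp of the optimal summit, so both were found at the same place in all 3.

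The head gap gene *btd*, a zinc finger factor (FBgn0000233; X, 9694186 to 9697558, forward strand), had 3 optimal peaks in its region, all upstream and all nearer to a TSS of another protein-coding gene. That gene is *nej*, which encodes the histone acetyltransferase CBP and is transcribed away from *btd* on the other strand. The highest peak (9687624 to 9687796) ranked 330, the best rank of any peak near the 8 genes, and 341, 372 and 290 in replicates 1, 2 and 3. Its summit was 652 bp upstream of a *nej* TSS and 6468 bp upstream of the *btd* TSS. It was 173 bp wide, where the median optimal peak was 404 bp. It overlapped the next peak (9687723 to 9688126, rank 3063), whose summit lay 859 bp from the *nej* TSS and whose nearest entries ranked 19515, 2378 and 3995. The replicates were uneven here: in replicates 1 and 3 the entries of rank 341 and 290 span both summits, and the separate entry for the lower one is far down the list in replicate 1 only. The third peak (9685892 to 9686295, rank 1848) was in a *nej* promoter, 427 bp upstream of another *nej* TSS, and ranked 1210, 2349 and 2446. The non-coding RNA gene *lncRNA:CR42657* starts at 9688189, between these summits and *btd*, and its start is nearer than that of *nej* to both of the overlapping summits. All 3 *btd* summits were thus within 1 kb of a *nej* TSS and none within 6 kb of that of *btd*.

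*Sp1* (FBgn0020378; X, 9729648 to 9756369), a zinc finger gene next to *btd* and related to it, had no optimal summit in its region. Its highest entry in the joint list, the 30000 peaks and background regions called on all replicates together, was intronic, 20359 bp inside the gene, and ranked 11131. It ranked 11308 and 11456 in replicates 1 and 2, and replicate 3 had no entry there. The 4 joint entries in the *Sp1* region came to 0.856 per 10 kb, beside 3.85 per 10 kb for *btd* and 2.24 over the arms. The highest *btd* entries lay nearest to *nej*, and those nearest to the *btd* TSS ranked 19243, 26927 and 28513. The nearest optimal summit lay 22298 bp from the gene, 75 bp from the TSS of *CG1354*.

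*cnc* (FBgn0262975; 3R, 23185580 to 23226711, reverse strand) encodes a bZIP factor of the labral and mandibular segments and has 10 annotated TSSs. Its region held 4 optimal peaks, and 3 of them were at or inside the gene. The peak at its 5′ end (23226547 to 23226950), in the promoter of the most upstream TSS, had its summit 38 bp before that TSS. It was near the foot of the list at rank 3802, and ranked 2856 in replicate 1, 4929 in replicate 2 and 5304 in replicate 3. Only replicate 1 therefore had it among its 3866 highest entries. A second promoter peak (23189806 to 23190209), 411 bp downstream of an internal TSS, was stronger and steadier, at rank 1463, and 1650, 1799 and 1642 in the replicates. An intronic peak 1196 bp inside the gene (23225313 to 23225716) ranked 2857, and 3657, 2541 and 3004.

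The highest peak of the *cnc* region (23175439 to 23175842, rank 461; 393, 524 and 502 in the replicates) lay 9939 bp beyond the 3′ end, just inside the 10 kb limit. It was in an intron of *Irk1*, a potassium channel gene, and of *CG46310*, and its nearest TSS, shared by both, was 1768 bp away. The *cnc* region also held the most entries of the joint list, 27 in all or 4.42 per 10 kb. Of the 23 outside the optimal list, 1 had a q-value under 0.01, an intronic entry at rank 4319.

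*croc* (FBgn0014143; 3L, 21474133 to 21476479, reverse strand), a forkhead gene of the clypeolabrum, had 1 optimal peak. It was intergenic, 9675 bp past the 3′ end and so close to the edge of the region, and ranked 2777. Its matches ranked 3985, 3262 and 2938, so that replicate 1 had it just outside its 3866 highest entries. When only peaks that overlapped the 3866 highest entries of both other replicates were kept, *croc* had 0 peaks without replicate 2 or without replicate 3. The count of genes with a peak was then 3 of 8 in either case, beside 50.6% and 50.1% of protein-coding genes.

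The peaks of the optimal list were made from these replicates, so their presence in each is not independent. All 10 overlapped an entry of every replicate's list by at least 1 bp, as did 99.3% of optimal peaks, and 8 overlapped 1 of the 3866 highest entries of every replicate, beside 64.6% of optimal peaks. When each peak is given only the entry with the nearest summit, 7 of the 10 did so. The exceptions were the peak at the 5′ end of *cnc*, that of *croc* and the lower of the overlapping *btd* peaks. The share of all optimal peaks by this nearest-summit rule was not computed. The 64.6% is for the looser overlap rule and is no background for the 7. Among their 3866 highest entries, replicates 1, 2 and 3 had 10, 10 and 11 summits in the 8 regions, or 10.3 ± 0.577 (SD, n = 3).

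**Figure D2:**
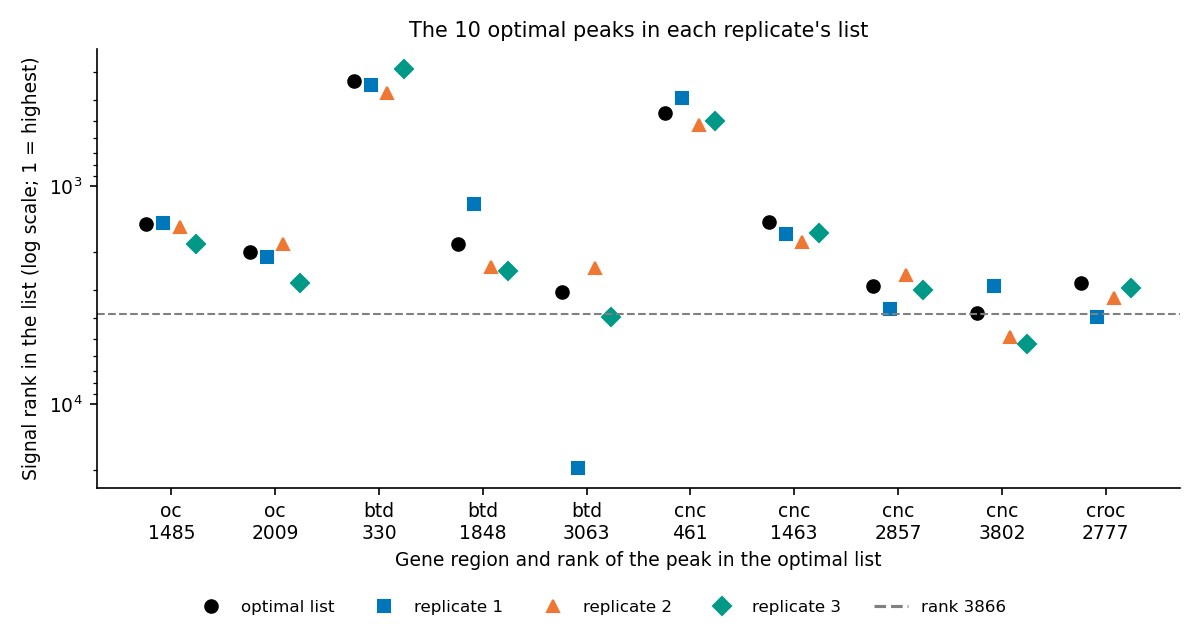
Signal rank of the 10 optimal peaks of the 8 gene regions in the optimal list (black circles) and of the nearest matching entry in each replicate's list (squares, triangles and diamonds for replicates 1, 2 and 3), on a log scale with the highest rank at the top; the dashed line is rank 3866. The highest *btd* and *cnc* peaks lie between ranks 290 and 524 in every list, and the peak of rank 3063 near *btd* drops to 19515 in replicate 1.

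The regions of the gap genes *tll*, *gt* and *hb* held only entries below the optimal list. *tll*, which encodes a nuclear receptor needed at both ends of the embryo (FBgn0003720; 3R, 30852315 to 30854400), had 5 joint entries, all downstream of the gene. The highest (30860215 to 30860618) lay 8102 bp from its TSS, beside 7104 bp from the TSS of *Cpr100A*, and ranked 7412. In the replicates it ranked 12741, 4262 and 9050, which in replicate 2 is not far below the 3866 highest. The nearest optimal summit was 33534 bp from the gene, in an intron 892 bp from the TSS of *Sap-r*, a saposin gene.

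*gt*, a bZIP gap gene (FBgn0001150; X, 2427113 to 2428967), had the fewest joint entries, 2 in all or 0.915 per 10 kb, of which the higher ranked 22156. That entry lay 9229 bp from the *gt* TSS, beside 6117 bp from the TSS of *CG32797*. Replicate 1 had no entry in the region at all, and the best of replicates 2 and 3 ranked 10392 and 16179. The nearest optimal summit was 15012 bp away and fell 3 bp from the TSS of *tko*, a mitochondrial ribosomal protein gene.

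*hb*, a zinc finger gap gene (FBgn0001180; 3R, 8690980 to 8697822, reverse strand), had 8 joint entries, with ranks from 13571 downwards. The highest (8697296 to 8697699) was in a promoter, 324 bp inside the gene from the more upstream of its 2 TSSs. It ranked 3370 in replicate 1 and 19092 in replicate 2, and replicate 3 had no entry there. Another entry, rank 22146, lay 219 bp downstream of the second TSS. The nearest optimal summit was 14242 bp from the gene, 125 bp from the TSS of *Unc50*.

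Entries that only replicate 1 ranked high also occurred at *cnc*: a promoter entry (23214397 to 23214786), 35 bp upstream of another internal TSS, ranked 2456 in replicate 1, and its joint-list counterpart (rank 6090) matched entries at 15563 in replicate 2 and 11141 in replicate 3. In replicate 1, 3.23% of the 3866 highest entries were in coding exons, against 0.388% in replicate 2 and 0.595% in replicate 3. Whether that difference bears on these promoter entries was not tested. Other entries were among the 3866 highest of replicate 3 alone, at rank 3735 in the *btd* region and 3363 in the *cnc* region.

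**Figure D3:**
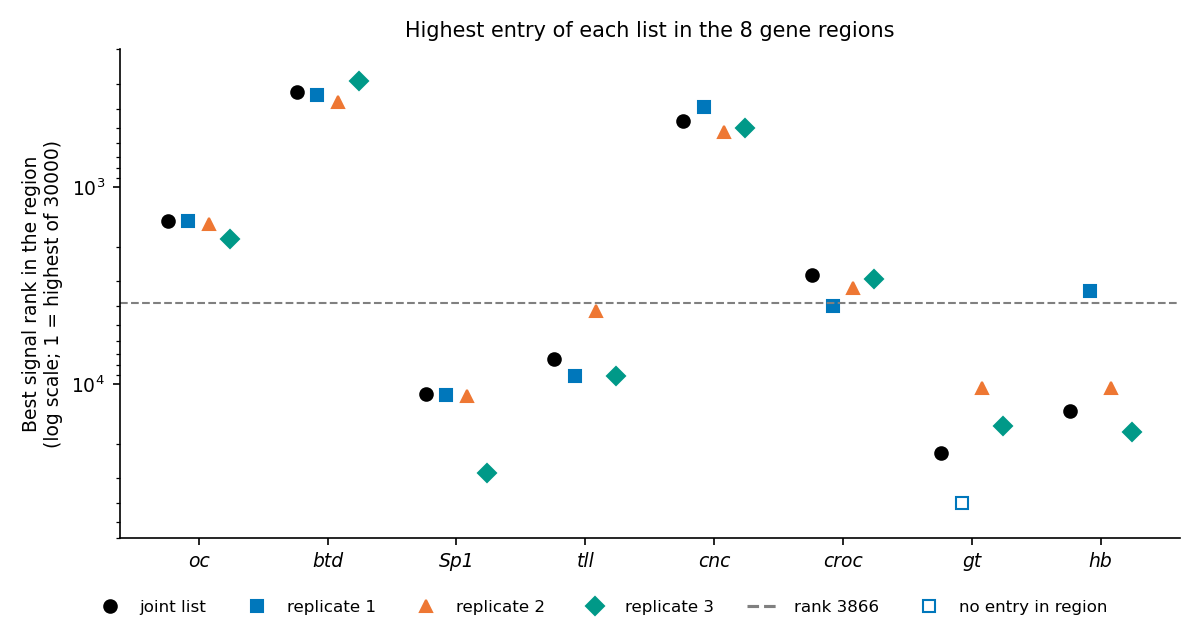
Rank of the highest entry in each gene's region in the joint list (circles) and in each replicate's list (squares, triangles and diamonds), on a log scale with the highest rank at the top; the open square marks a replicate with no entry and the dashed line is rank 3866. *oc*, *btd* and *cnc* lie above the line in every list and *Sp1*, *tll* and *gt* below it, while *croc* in replicate 1 (rank 3985) and *hb* in replicate 1 (rank 3370) fall on the other side from their other lists.

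All 8 regions held at least 1 entry of the joint list, as did those of 94.6% of protein-coding genes. Entries per 10 kb were 2.53 over the 8 regions and 2.24 over the arms. Of all protein-coding genes, 10.8% had as high an entry as *btd* or a higher one, 14.0% as *cnc*, 35.0% as *oc* and 51.2% as *croc*. The corresponding shares were 74.7% for *tll*, 82.0% for *Sp1*, 85.0% for *hb* and 91.6% for *gt*, so the 8 genes were spread over nearly the whole range.

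The distance from a gene's own TSS to the nearest optimal summit separated *cnc* from the rest. It was 38 bp for *cnc*, 6065 bp for *oc*, 6261 bp for *btd*, 12021 bp for *croc*, 15012 bp for *gt*, 17862 bp for *hb*, 34771 bp for *tll* and 41723 bp for *Sp1*. The median over the 8 was 13516.5 bp, beside 7593 bp over all protein-coding genes. *cnc* was within the nearest 3.43% of genes, and 87.2% were as near as *Sp1* or nearer. The 38 bp rests on the *cnc* peak of rank 3802, which only replicate 1 had among its 3866 highest entries. Another *cnc* summit, of rank 1463, was 411 bp from a TSS. The distance is the smallest over 10 TSSs for *cnc*, and over 1 to 3 for each other gene.

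**Figure D4:**
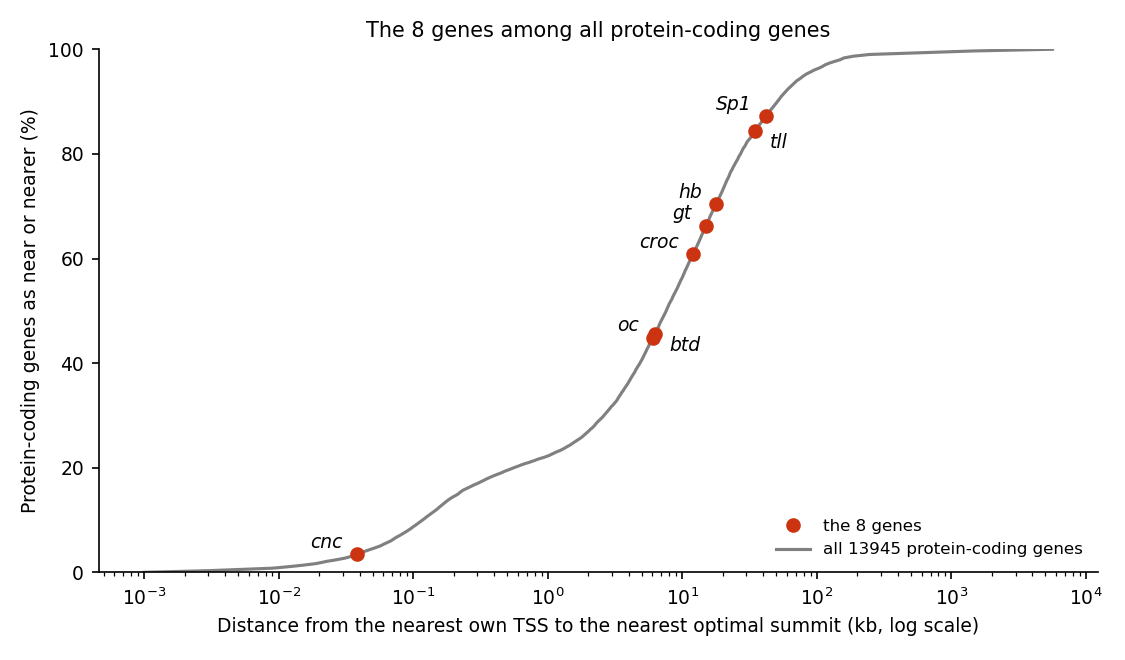
Share of protein-coding genes (%, y axis) whose nearest optimal summit is within a given distance of one of their TSSs (kb, log scale), with the 8 genes marked on the curve. *cnc* stands at 38 bp and 3.43%, and the other 7 lie between 6065 bp and 41723 bp.

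By position, 5 of the 10 summits were intergenic, 3 in promoters (at most 500 bp from a TSS of any protein-coding gene) and 2 in introns. Of all optimal summits 12.5% were intergenic, 54.7% in promoters and 30.0% in introns. The intergenic summits of the regions include both of the overlapping *btd* peaks, 652 and 859 bp from a *nej* TSS. Both lay nearer to the start of *lncRNA:CR42657*, but starts of non-coding RNA genes do not count as promoters here. For 6 of the 10 the nearest protein-coding TSS belonged to 1 of the 8 genes, and for the other 4 to *nej* or to *Irk1* and *CG46310*. In the 2 gene regions with the highest peaks, those of *btd* and *cnc*, the protein-coding TSS nearest to the highest summit was that of 1 of these neighbours.

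A list of 22 other patterning genes was centred on the anterior and head but not limited to them, as it also held *cad* and *Kr*. Of the 22, 12 had an optimal summit in the gene body with 10 kb to each side, beside 60.5% of protein-coding genes. Within 1 kb of a TSS of their own, 3 had one, beside 22.2%. These 3 were *bcd*, which encodes Bicoid, and the eye and brain genes *ey* and *so*. The *bcd* promoter peak (3R, 6759432 to 6759835) peaked 168 bp from the TSS and ranked 1461, and 2024, 1336 and 1648 in the replicates. The highest peak of this list was 1 shared by the neighbouring forkhead genes *slp1* and *slp2* (2L, 3832393 to 3832645). It was intergenic, 4332 bp from the *slp2* TSS, and ranked 110, and 111, 109 and 128 in the replicates. Next came *kn*, a factor of the intercalary and mandibular region, whose region held a peak of rank 1318 that lay 39 bp from the TSS of *BEAF-32*, an insulator protein gene. It was less even, at 3373, 854 and 1378 in replicates 1, 2 and 3. The other genes with a peak were *ems* itself, *knrl*, *toy*, *D*, *SoxN* and *cad*, and those with none were *E5*, *kni*, *hkb*, *lab*, *pb*, *Dfd*, *eya*, *Optix*, *vnd* and *Kr*.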

How the data were processed

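Peak lists on dm6 for 3 replicates, 1 joint list and 1 optimal list were used; the dm3 lists were not. Each replicate's list came from its own alignments with a control file and the joint list from all 3 alignments with that control, per the notes deposited with them, which also derive the optimal list from the other 4. No source used here names the aligner, the peak caller or the settings of the irreproducible discovery rate. The signal column holds the authors' deposited peak signal, on an unstated scale, so only its rank inside a list was used. The −log10 q column, deposited by the authors, gave q-values under 0.01. The summit offset, deposited in bp from the interval start, gave summits, printed 1-based. No read counts are in the lists, so depth is unknown.

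Genes and TSSs came from Ensembl release 115; all 16 ends of the 8 genes equal those of RefSeq on Release 6, the assembly of dm6. Matches needed 1 bp of overlap. The sequence of 1 of the 10 summit windows is not reported here and was left out of the motif search. Python 3.11.15 and numpy 2.4.6 were used, and the counting rules were tested on simulated data. The 8 genes and the lists were chosen with earlier results of these data known. Named are the 8 genes, the nearest genes to their summits or to the nearest optimal summit outside, and the 4 listed genes with the highest peaks. Further entries of the lists, *Cpr100A*, *CG32797*, *ey*, *so* and the remaining genes of the list of 22 were named after their values were seen.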

Additional observations from a re-analysis of the deposited data

How the results depend on the processing

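With 2 kb and 5 kb to each side of the gene, the genes with a peak numbered 1 and 2 of 8 (33.7% and 46.7% of all protein-coding genes), with 3 and 4 summits, and the joint entries 36 and 43; with 20 kb they were 6 of 8 (75.6%), 14 and 113. The 1933 optimal peaks of higher signal left 3 of 8 genes with a peak (41.4% of all genes) and 5 summits. All 5 overlapped an entry of every replicate's whole list, as did 99.3% of all optimal peaks. Only *cnc* had a summit near its own TSS at 500 bp (19.5% of all genes) and at 5 kb (40.6%). Keeping peaks that overlapped the 3866 highest entries of both other replicates gave 3 to 4 genes (50.1% to 53.0% of all), 8 to 9 summits and 1 gene with a TSS peak (16.2% to 17.8% of all). Some replicate ranks of the best peaks differed from the optimal rank by at least 1 SD of the 3 replicate ranks. They were 1838 for *oc* in replicate 3, 372 for *btd* in replicate 2 and 3985 for *croc* in replicate 1. That SD, with n = 3, comes from these same ranks. The optimal rank of *btd*, 330, lay between its replicate ranks of 290 and 372. Of the 22 other genes, 7 had a peak with 2 kb to each side, 8 with 5 kb and 18 with 20 kb. The shares of all genes were 33.7%, 46.7% and 75.6%. Among the 1933, 6 of the 22 had one (41.4% of all genes). A motif lay within 50 bp of 7 of the 9 summits (49.8% of all) and within 200 bp of 9 (91.6%). These alternatives for the 22 genes and the motifs were chosen after seeing the data. Of 32 counts under alternatives for the 4 genes with peaks, 11 fell more than 1.5 times below the reported count; of 32 for the 4 genes without, 2 were above 0, and most of these alternatives could add no peak. The cause was not tested. No paired analysis was possible because the series has 1 group. Depth is unknown, so an empty region cannot be told apart from one below detection.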
